A study of Mus musculus with 8 samples.

Results

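The transcripts of 8 genes of inflammatory and lytic cell death, Casp1, Casp4, Casp8, Casp12, Ripk3, Mlkl, Gsdmd and Zbp1, were followed in lymphatic endothelial cells of mouse ear skin. They were chosen by name, with earlier results of these data known. Every probe set that the array annotation assigns to 1 of these genes alone was used, 10 probe sets of 34945 that name a single gene. Casp12 and Zbp1 had a pair of probe sets each and the other 6 genes had 1. All cells came from female FVB mice of 8 to 10 weeks and were sorted as CD31+ podoplanin+ cells lacking the leukocyte marker CD45. For the inflamed group, contact hypersensitivity was raised with the allergen oxazolone, first at 2% on abdominal skin and paws and, after 5 days, at 1% in 10 µl per side of each ear. Ears were collected 24 hours after this challenge. The untreated group was labelled healthy, with no vehicle treatment given in the labels. Each group held 4 samples of 3 pooled mice, and the inflamed and untreated samples of a pair were sorted and extracted on a shared day. The submitters chose these 4 pairs for the quality of their RNA material.

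Pyroptosis and necroptosis are lytic forms of cell death that release inflammatory contents. In pyroptosis, caspase 1 within inflammasomes, or the lipopolysaccharide sensor caspase 4 (also called caspase 11 in the mouse), cuts gasdermin D, whose freed end forms pores in the plasma membrane. In necroptosis, the kinase RIPK3 is engaged through RIPK1, TRIF or the nucleic acid sensor ZBP1 and phosphorylates MLKL, which then breaks the membrane. Caspase 8 starts apoptosis below death receptors and also holds necroptosis in check. Endothelial cells and leukocytes can both express these genes, and several of them are known to be induced by interferons. These transcript levels do not measure cleavage, phosphorylation or cell death.

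Zbp1, Mlkl and Casp4 were higher in inflamed skin, by 31.6-fold, 22.6-fold and 8.54-fold. These were 3 of the 7 genes tested at an adjusted p under 0.05 in limma, against 3.91% of all 10843 genes tested that were called higher. None was lower, against 3.02% of all genes, with 0 of 7 lower and 7 of 7 higher at an unadjusted p under 0.05. Over all genes tested, 11.5% were lower and 10.5% higher at that unadjusted p. Ripk3, Gsdmd, Casp8 and Casp12 did not pass, and their measured differences lay between 1.44 and 2.31 on the log2 scale. Casp1 was too dim to enter the test. The median difference of the 7 tested genes was 2.31, beside -0.09 over all genes tested. The untreated means of all 7 lay above the filter on dim probe sets (3.30), so none entered the test through its inflamed level. In 6 of the 7 the lowest inflamed array lay above the highest untreated one, which held for 6.30% of all genes tested.

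**Figure D1:**
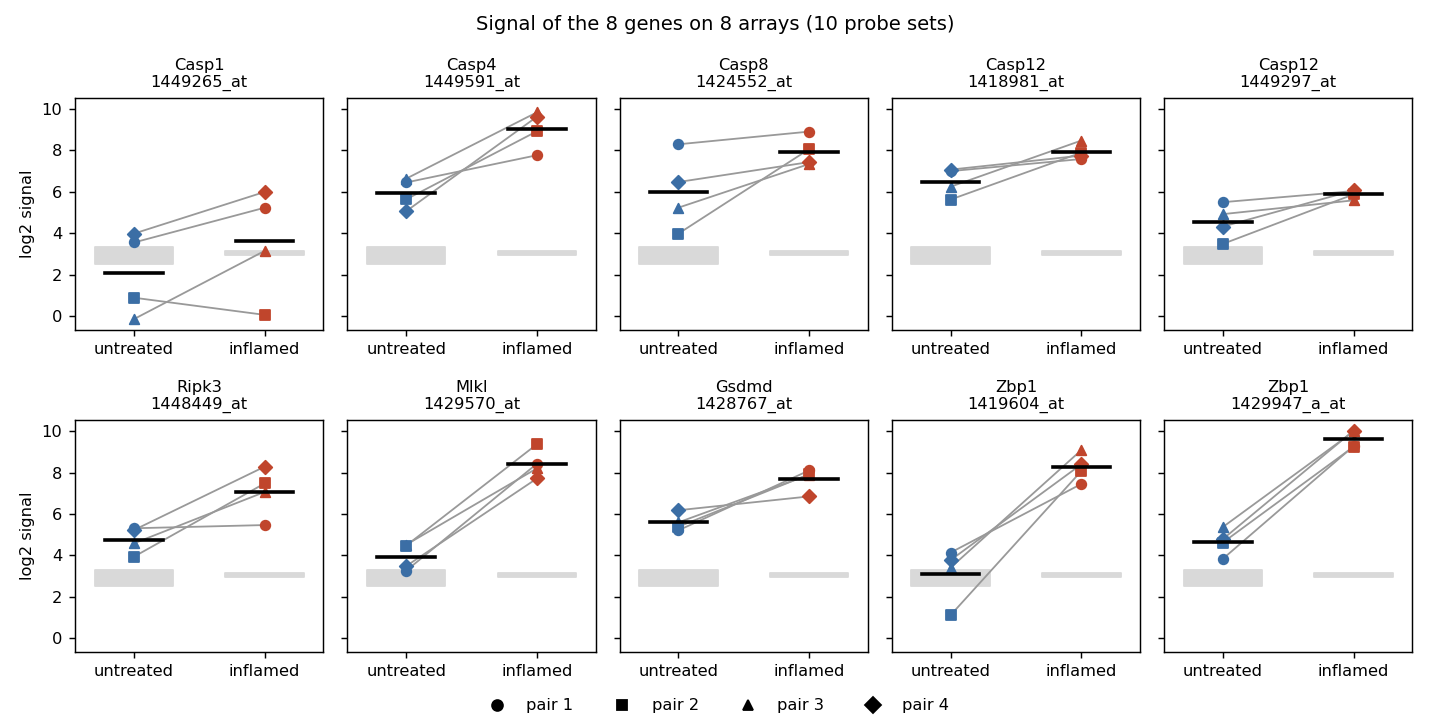
Log2 signal (vertical axis) of the 10 probe sets in untreated (blue) and inflamed (red) samples; marker shapes are the 4 pairs, grey lines join a pair, black bars are group means and grey bands span the background ceilings of the 4 arrays of a group. Both Zbp1 probe sets and Mlkl rise in every pair to inflamed means of 8.25, 9.63 and 8.43, while Casp1 lies under the band on 2 untreated and 1 inflamed array.

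The necroptosis sensor ZBP1, an interferon-induced protein that binds left-handed nucleic acids and passes the signal to RIPK3, had the largest difference among the tested members. Its brighter probe set, 1429947_a_at, read 3.83, 4.62, 5.37 and 4.78 log2 signal in the untreated samples of pairs 1 to 4. In the inflamed samples it read 9.28, 9.25, 9.98 and 10.03. The 2 groups lay far apart, and the inflamed values were the tighter, with SDs of 0.43 and 0.63. Zbp1 rose by 4.98 ± 0.46 (SE; n = 4 pairs; adjusted p = 0.000558), and by 4.28 with 16 added to each signal before the logarithm. The other probe set, 1419604_at, was dimmer, at 4.13, 1.11, 3.41 and 3.77 in the untreated and 7.45, 8.08, 9.09 and 8.40 in the inflamed samples. One of its untreated values lay under the background ceiling, a per-array limit taken from bacterial control probe sets. Fitted probe set by probe set, where 1.60% of 34945 were called higher, its difference was 5.15 ± 0.74 (SE; adjusted p = 0.00306 in limma), so both Zbp1 probe sets gave the same direction and a like size. Without the intensity trend in the variance this dimmer probe set did not pass (adjusted p = 0.0727).

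Ripk3 encodes the kinase that joins ZBP1 and other inputs to MLKL. It read 5.31, 3.93, 4.58 and 5.22 in the untreated and 5.46, 7.47, 7.06 and 8.28 in the inflamed samples of pairs 1 to 4. All 4 pairs were higher and the groups did not overlap, but the within-pair difference ran from 0.16 in pair 1 to 3.54 in pair 2. The mean difference of 2.31 ± 0.71 (SE; 95% interval 0.72 to 3.90) did not pass (adjusted p = 0.0904 in limma), and passed under median centring (adjusted p = 0.047).

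Mlkl encodes the pseudokinase that carries out necroptosis. Its untreated samples read 3.26, 4.47, 4.51 and 3.48, each above the background ceiling of its array, by 0.39, 1.93, 1.37 and 0.16 in pairs 1 to 4. Its inflamed samples read 8.43, 9.37, 8.20 and 7.71, a clear gap from the untreated ones. Mlkl rose by 4.50 ± 0.57 (SE; adjusted p = 0.00221 in limma), and its 4 pairs differed by 3.69 to 5.17. The untreated signals of pairs 1 and 4 were close to background, and with 16 added to each signal the rise was 3.51. The calls of Zbp1, through its brighter probe set, and of Mlkl held in each of the 15 alternative analyses.

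Casp8, the initiator caspase that restrains RIPK3, varied widely among the untreated samples. It read 8.29, 3.98, 5.23 and 6.47 in the untreated and 8.91, 8.06, 7.34 and 7.43 in the inflamed samples. Each inflamed sample was above its own pair's untreated one, but the untreated sample of pair 1 exceeded 3 of the 4 inflamed samples, so the groups overlapped. The SD was 1.84 in the untreated and 0.72 in the inflamed samples. The difference of 1.94 ± 0.64 (SE; 95% interval 0.50 to 3.39) did not pass (adjusted p = 0.113 in limma).

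**Figure D2:**
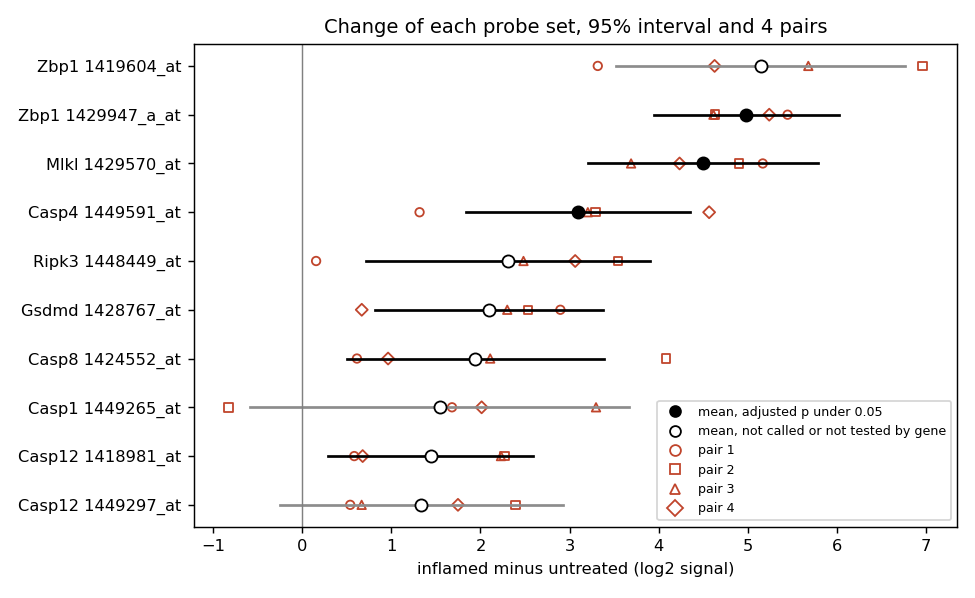
Inflamed minus untreated log2 signal (horizontal axis) of the 10 probe sets: large circles are means, filled where the adjusted p was under 0.05 in the fit over genes; bars are 95% intervals of the limma fits, grey for probe sets fitted one by one; small open symbols are the 4 pairs. Zbp1, Mlkl and Casp4 stand at 4.98, 4.50 and 3.09, and the other tested genes at 1.44 to 2.31.

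Casp1, Casp4 and Casp12 are inflammatory caspases that stand side by side on chromosome 9, in this order among protein-coding genes of the RefSeq table of GRCm38.p6. Casp4, the sensor of cytosolic lipopolysaccharide, read 6.45, 5.63, 6.63 and 5.06 in the untreated and 7.77, 8.92, 9.84 and 9.63 in the inflamed samples. No inflamed value fell within the untreated range, and pair 1 had the smallest gap, 1.32, and pair 4 the largest, 4.57. Casp4 rose by 3.09 ± 0.56 (SE; adjusted p = 0.0118 in limma). The call ended without pair 2 (adjusted p = 0.0527), without pair 3 (adjusted p = 0.0655) and without the intensity trend in the variance (adjusted p = 0.0849), over a range of 0.00368 to 0.0849 in all 15 alternatives.

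Casp12, a caspase placed at the endoplasmic reticulum, was measured by probe sets 1418981_at and 1449297_at. The first read 6.999, 5.63, 6.25 and 7.07 in the untreated and 7.58, 7.89, 8.48 and 7.75 in the inflamed samples. The inflamed values all lay above the untreated ones, with within-pair differences of 0.58 and 0.68 in pairs 1 and 4 and of 2.27 and 2.23 in pairs 2 and 3. The difference of 1.44 ± 0.51 (SE; 95% interval 0.29 to 2.59) did not pass (adjusted p = 0.136 in limma). The second probe set also lay higher in all 4 pairs, by 1.34 ± 0.73 (SE; 95% interval -0.26 to 2.93; adjusted p = 0.440 in the probe set fit).

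Casp1, the caspase that matures IL-1β and IL-18, gave a dim signal. Its probe set 1449265_at read 3.55, 0.88, -0.15 and 3.98 in the untreated and 5.23, 0.05, 3.14 and 5.99 in the inflamed samples. It was above background on 2 of 4 untreated and 3 of 4 inflamed arrays, higher in pairs 1, 3 and 4 and lower in pair 2. The difference was 1.54 ± 0.98 (SE; 95% interval -0.59 to 3.67; adjusted p = 0.521 in the probe set fit). A change of Casp1 was thus not detectable at this signal, and the interval spans both no change and a rise as large as that of Casp4.

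The promoters of these neighbours and of the other members were read for short motifs, as a description of what they share. RefSeq (GRCm38.p6) gave 7 windows of 300 bases for 6 of the 8 genes, Casp1, Casp4, Casp8, Casp12, Ripk3 and Mlkl, each holding 250 bases before and 50 after a gene's start. Both strands were searched for the NF-kB consensus, for an interferon response element (GAAA repeated after a gap of 2 bases) and for the STAT element TTCNNNGAA. These were present in 8.46%, 3.44% and 8.30% of all 32851 windows. The NF-kB motif matched in Casp4 alone of the 6 genes, in both of its overlapping windows, and the STAT element in Casp12 alone. The interferon element matched in none of the 6. The stretches with the matches follow, 5′ to 3′ on the plus strand, with the matched bases in capitals.
Casp4, chr9:5308731-5308844: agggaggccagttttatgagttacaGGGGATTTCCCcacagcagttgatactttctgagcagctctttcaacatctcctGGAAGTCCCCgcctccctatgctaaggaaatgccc
Casp12, chr9:5345349-5345473: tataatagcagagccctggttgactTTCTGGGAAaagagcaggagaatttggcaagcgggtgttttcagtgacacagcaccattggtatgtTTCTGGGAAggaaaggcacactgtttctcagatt
In Casp4 the 2 runs begin at positions -93 and -39 from the upstream one of its 2 annotated starts. The first run of 11 bases joins 3 overlapping matches, counted on both strands, and the second holds 1 on the minus strand. In Casp12 the 2 copies are letter for letter the same, at positions -102 and -36. A match describes the letters of the window, and binding was not measured.

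Gsdmd encodes the pore-forming target of caspases 1 and 4. It read 5.20, 5.38, 5.59 and 6.18 in the untreated and 8.10, 7.91, 7.89 and 6.85 in the inflamed samples. The inflamed samples of pairs 1 to 3 lay close together and that of pair 4 stood about 1 unit lower, still above every untreated sample. The difference of 2.10 ± 0.57 (SE; 95% interval 0.82 to 3.38) did not pass (adjusted p = 0.06 in limma). It did pass in 8 of 15 alternatives, among them the fits with no pair block (adjusted p = 0.0276) and without pair 4 (2.58, adjusted p = 0.0471), so Gsdmd lay at the edge of the threshold.

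**Figure D3:**
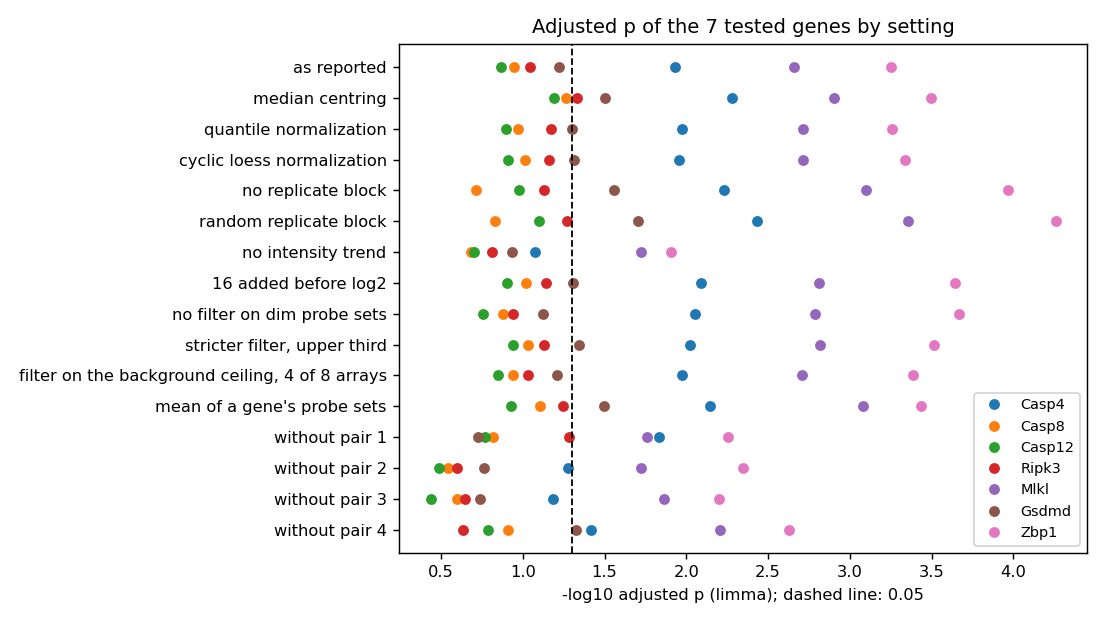
Adjusted p-values in limma as -log10 (horizontal axis) of the 7 tested genes under the reported analysis and 15 alternatives (rows); the dashed line marks 0.05 and points to its right were called. Zbp1 and Mlkl lie right of the line in every row, Casp4 in 12 of the 15 alternatives and Gsdmd in 8.

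Other genes of these pathways were taken as whole lists of 56 genes, 38 of which were tested. Among them 7 were called higher and 1 lower, beside the 3.91% and 3.02% of all genes tested. Il1b, 1 of the 7, passed the filter on dim probe sets only through its inflamed level. The unadjusted counts below stand beside the 10.5% and 11.5% of all genes given above. Of the 4 inflammasome sensors and adaptors tested, 0 were higher and 1 lower (0 and 1 at an unadjusted p under 0.05 in limma). The median difference of these 4 was -0.44, and that of all 9 measured was 0.29. The lower one was Txnip, an inhibitor of thioredoxin that can bind NLRP3, which fell by 1.03 on the log2 scale (adjusted p = 0.00761), a call that ended under median centring (adjusted p = 0.0519) and without the intensity trend (adjusted p = 0.204). Pycard, the ASC adaptor between sensors and caspase 1, read 6.91, 2.85, 5.52 and 6.47 in the untreated and 5.42, 5.74, 4.68 and 4.68 in the inflamed samples, with a difference of -0.31 ± 0.87 (SE; adjusted p = 0.886). The sensor Nlrp3 was under the filter, with 2 of 4 arrays of each group above background.

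Among pyroptosis substrates, effectors and brakes, 3 of 11 tested were higher and 0 lower (6 and 0 unadjusted), with a median difference of 1.01. Il1b and Panx1, both with an untreated mean under the filter, were among the 6, and Il1b was among the 3. Il1b, the cytokine precursor cut by caspase 1, was above background on no untreated and on all 4 inflamed arrays, at least 24.96-fold higher (adjusted p = 0.00163). It read 0.85 ± 0.69 and 7.60 ± 0.69 (SD, n = 4), so it entered the test through its inflamed level alone. The direction of its difference was thus fixed in advance. Of the 407 genes tested with an untreated mean under the filter, 69 were called higher. The guanylate-binding proteins Gbp2 and Gbp7, of the family that helps expose bacterial lipopolysaccharide to caspase 4, rose by 5.87 ± 0.23 and 3.44 ± 0.28 (SE; adjusted p = 6.94e-06 and 0.000295). Il18, the other caspase 1 substrate, was under the filter and above background on 1 of 4 untreated and 0 of 4 inflamed arrays.

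In the death receptor and RIPK1 complex list, 3 of 18 tested were higher and 0 lower (4 and 0 unadjusted), with a median difference of 0.71. Tnfaip3, which encodes the ubiquitin-editing brake A20, rose by 3.04 ± 0.37 (SE; adjusted p = 0.00197). The TNF receptor Tnfrsf1a rose by 1.57 ± 0.32 (adjusted p = 0.0191), with the call lost without the intensity trend and without pair 2, 3 or 4 (adjusted p = 0.115, 0.0652, 0.095 and 0.0573). Tlr3, the endosomal double-stranded RNA receptor that signals through TRIF, rose by 1.12 ± 0.28 (adjusted p = 0.0438), a call kept in 5 of 15 alternatives. Fadd, the adaptor that brings caspase 8 to death receptors, and Cflar, which encodes the caspase 8 partner cFLIP and neighbours Casp8, differed by -0.72 ± 0.81 and 0.21 ± 0.37 and did not pass (adjusted p = 0.664 and 0.8). Ripk1 is not analysed here. Among apoptotic caspases and their activators 1 of 5 was higher and 0 lower (1 and 0 unadjusted). This was cytochrome c, Cycs, by 1.74 ± 0.23 (SE; adjusted p = 0.00295), while Casp2, Casp6 and Casp9 differed by -0.51, -1.04 and -0.76 and did not pass.

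**Figure D4:**
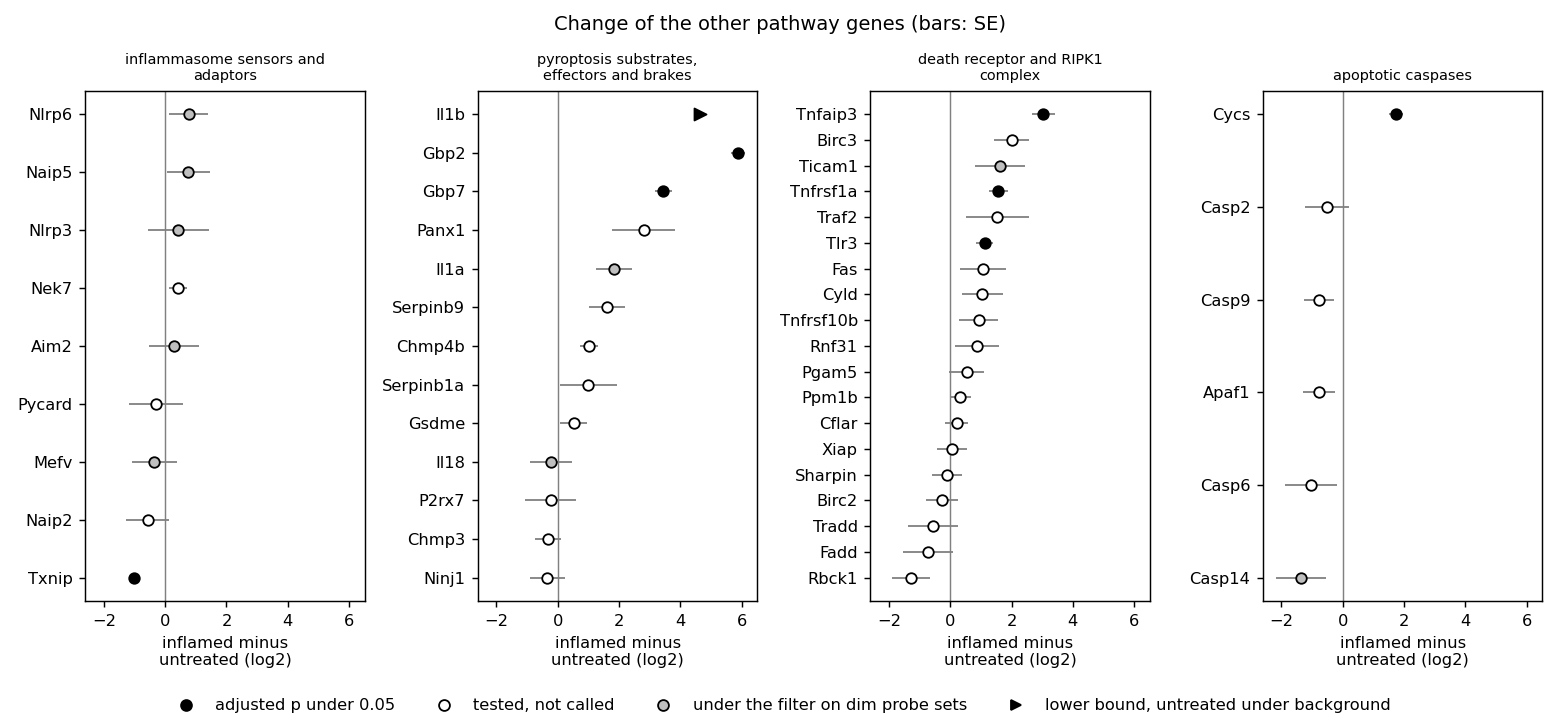
Inflamed minus untreated log2 signal (horizontal axes) of the measured genes of the 4 pathway lists; bars are the SE of the limma fit, filled circles passed an adjusted p of 0.05, open ones did not, and grey ones were under the filter on dim probe sets and come from the fit without it. The arrowhead of Il1b marks the log2 of its lower bound, since its untreated signals were under background. Il1b, Gbp2, Gbp7 and Tnfaip3 lie at 3.04 or more, and the inflammasome sensors and adaptors lie between -1.03 and 0.77.

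The genes whose signals followed the called members most closely over the 8 arrays were Cct3 for Zbp1 (Pearson r = 0.993), Tma16 for Mlkl (r = 0.985) and Gtf3c6 for Casp4 (r = 0.987). Each r is a description over arrays that share the group difference, taken as the highest of all tested genes.

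Some leukocyte transcripts moved beside the members. Ptprc, which encodes the CD45 used to exclude leukocytes, was above background on 0 of 4 untreated and 3 of 4 inflamed arrays, at 0.91 ± 1.28 and 3.67 ± 1.62 (SD, n = 4). The median differences over all measured pan-leukocyte, neutrophil and monocyte and macrophage markers were 2.77, 1.65 and 1.42. The 5 of them that were called higher had entered the test through their inflamed level. Measured dendritic cell, T cell and mast cell markers (6, 6 and 5 genes) had median differences of 0.05, -0.57 and -0.79. Only 1, 2 and 1 of them were tested, with 0 called higher in each list, beside 3.91% of all genes tested. The rest were under the filter on dim probe sets, so these calls cannot show whether such cells were more frequent. The 12 measured neutrophil markers summed to linear signals of 45.7 to 74.1 in the untreated and of 850.3 to 1939 in the inflamed samples. S100a8 and S100a9 made up 71.8% to 93.7% of the inflamed sums. The untreated mean of this list, 1.76 log2, was under the lowest background ceiling (2.53), so its untreated sums lay near background. The sums of the 14 monocyte and macrophage markers were 526.2 to 1226 and 862.3 to 2793, and those of the 7 pan-leukocyte markers 150.2 to 693.8 and 1249 to 6285. The markers with the highest untreated means in these lists, Mrc1 (8.69 untreated, 8.78 inflamed) and Laptm5 (7.95 and 8.33), did not pass (adjusted p = 0.937 and 0.863 in limma). Cd53 had the highest inflamed pan-leukocyte mean (0.90 untreated, 9.97 inflamed). It was above background on 0 of 4 untreated and on all 4 inflamed arrays, so it was at least 128.7-fold higher. On no inflamed array were the neutrophil markers Ltf and Ngp or the macrophage marker Ms4a7 above background. Lymphatic endothelial markers summed to 21820 to 28303 in the untreated and to 12068 to 20811 in the inflamed samples, and 3 of 7 of them were lower. All 7 were above background on every array. Pdpn, which encodes the podoplanin used in the sort, was the only one of them with a higher inflamed mean. It was higher in all 4 pairs, by 0.56, and did not pass (adjusted p = 0.0605 in limma). Prox1 differed by -1.44, lower in all 4 pairs, and did not pass (adjusted p = 0.0618 in limma). Pecam1, which encodes the CD31 used in the sort, differed by -0.72, lower in 3 of 4 pairs (adjusted p = 0.188 in limma). Of the 8 pan-endothelial markers, 3 were called lower and 0 higher, beside 3.02% and 3.91% of all genes tested. The mean of 6 keratinocyte markers was lower in all 4 pairs, at 6.79 ± 0.88 and 3.51 ± 1.10 (SD, n = 4), with 3 of 5 tested called lower. The mean of 7 fibroblast markers was higher in all 4, at 9.55 ± 1.06 and 10.18 ± 0.48 (SD, n = 4), with 1 of 7 called higher. The log2 ratio of the 3′ to the 5′ control probe set of Gapdh, a measure of RNA length, was 3.77, 4.16, 3.40 and 4.08 in the untreated and 3.30, 3.26, 3.08 and 2.58 in the inflamed samples, thus lower in the inflamed sample of every pair. That of Actb lay between -0.15 and 0.00 on all arrays. The part of other cells and of RNA quality in the differences of Zbp1, Mlkl and Casp4 was not tested, and in these bulk samples fewer cells of a type and less RNA per cell cannot be told apart. The mean of the 8 members, 4.93 ± 0.49 in the untreated and 7.67 ± 0.25 in the inflamed samples (SD, n = 4), was higher in all 4 pairs, as were the leukocyte, neutrophil and monocyte and macrophage means, while the endothelial means were lower in all 4. With 4 pairs, an exact permutation of signs cannot reach 0.05 for these means.

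**Figure D5:**
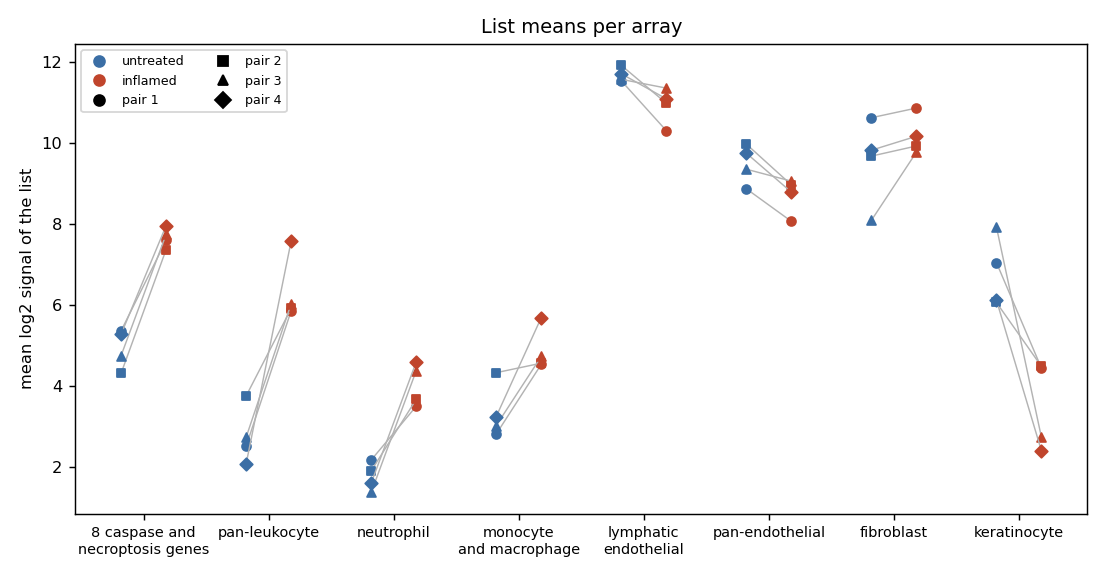
Mean log2 signal per array (vertical axis) of the 8 genes and of 7 marker lists in untreated (blue) and inflamed (red) samples; shapes are pairs and lines join a pair. The 8 genes and the pan-leukocyte, neutrophil and monocyte and macrophage lists are higher in the inflamed samples of every pair. The pan-leukocyte mean is highest in pair 4 at 7.58.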

How the data were processed

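RNA of the sorted cells was amplified into single-stranded cDNA, labelled with biotin and hybridised to 1 single-colour array per sample, per the labels' protocols. The deposited intensity values are linear signals, made with MAS5 per the submitters' processing notes. Its version and scaling target are not given in these sources, and detection calls were not used. Array medians of log2 signal differed by 0.467, under the limit set for centring, so the authors' scaling was kept. The medians were 3.27 to 3.44 in the inflamed and 3.56 to 3.74 in the untreated samples, so every inflamed one was lower. Mean signals were 129.2 to 165.1. Probe sets under the median mean log2 signal (3.30) were left out and the brightest probe set naming 1 gene represented it, leaving 10843 genes. Of the 45037 non-control probe sets, 34945 named 1 gene, 932 several and 9160 none. limma 3.58.1 (R 4.3.3) fitted inflamed minus untreated with pairs as fixed blocks and an intensity trend, two-sided, with Benjamini-Hochberg adjustment over all genes (threshold 0.05). Its moderated SE borrows spread from genes of like intensity. A second fit took every probe set singly, with no filter. The background ceiling was the 95th percentile of 27 bacterial control probe sets per array (2.53 to 3.31 log2). A gene under it on all arrays of a group has only a bound, written "at least". The number of arrays limits the precision.

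The series' design text states the pairing. Across genes, the correlation of deviations from the mean of the group was 0.16, 0.00, 0.08 and 0.03 in pairs 1 to 4. Samples are pools, so p-values refer to pools. The members, gene lists and tests were chosen with earlier results of these data known. Named were all members, some core pathway genes, up to 4 called genes with the smallest p of each pathway list, and the gene most correlated with each called member. Casp2, Casp6 and Casp9, and markers on no inflamed array above background, were named after their values were seen. Alternatives were 3 normalizations, no or a random block, no trend, a pseudocount of 16, 3 filters, averaged probe sets and leaving out each pair.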

Additional observations from a re-analysis of the deposited data

Results flagged for a closer look

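In 4 of 74 groups of 4 arrays examined, 1 array stood apart from the other 3 by Dixon's ratio at the 95% level, where chance gives about 5% of groups. All 4 were the inflamed sample of pair 4. Its Gsdmd signal was 6.85 log2, against 7.89 to 8.10 in the other inflamed samples. Its Txnip signal was 10.99, against 10.24 to 10.32. Its mean level of pan-leukocyte markers was 7.58, against 5.86 to 6.03, and that of monocyte and macrophage markers 5.69, against 4.53 to 4.73. The part of these leukocyte levels in its Gsdmd or Casp4 signal was not tested. Without this pair, Casp4 rose by 2.60 (adjusted p = 0.0384), Mlkl by 4.59 (adjusted p = 0.00618) and Zbp1 by 4.90 (adjusted p = 0.00235) in limma.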

How the results depend on the processing

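Zbp1 and Mlkl kept their direction and call in all 15 alternatives, and the other 5 tested members kept their direction. The count of members called was 5 under median centring, which shifted the median over all genes (-0.09) to 0.22, and 2 to 4 without 1 pair. Over all genes, 719 were higher under median centring (76.0% of calls against 56.4%), 94 higher and 47 lower without the intensity trend, and 208 to 306 higher and 126 to 198 lower without 1 pair. Of the pathway genes, 4 were higher without the intensity trend, and 0 lower without it or under median centring. Without the replicate block 4 members, Gsdmd added, and 384 genes were higher and 301 lower. Tlr3 also lost its call there (adjusted p = 0.0841 in limma). Without 1 pair the differences of Pycard (-1.37 to 0.19), Fadd (-1.73 to 0.11) and Cflar (-0.068 to 0.39) changed sign. The cause of these shifts was not tested. Signal over background limits Casp1, Nlrp3, Il18 and the untreated levels of Mlkl and Il1b.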

Other observations

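The tested members did not share one order of pairs. Pair 1 gave the smallest within-pair difference of Casp4 (1.32), Casp8 (0.61), Casp12 (0.58) and Ripk3 (0.16) and the largest of Mlkl (5.17), Gsdmd (2.90) and Zbp1 (5.45, brighter probe set). Pair 2 gave the largest of Casp8 (4.08), Casp12 (2.27) and Ripk3 (3.54), and its untreated sample was the lowest of the 4 for these 3 genes and for Casp12's second probe set (3.48). Zbp1's dimmer probe set had another order, with its smallest difference in pair 1 (3.32) and its largest in pair 2 (6.96). These orders were noticed in the data and not tested.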
